A study of Mus musculus with 4 samples.

Results

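Imprinted genes are expressed from 1 parental allele only, and 41 of them were followed here in DNA methylation data from microglia, the macrophages that live in the brain. Members were taken from a list of named genes, grouped into 19 loci by shared domain, and every deposited row inside a gene or within 10000 bp of it was collected (GENCODE M21, GRCm38). All 41 genes were found in the annotation, out of 55413 annotated genes (21938 protein-coding) on the assembled chromosomes. Whole-genome bisulfite sequencing had been run on sorted, untreated microglia of C57BL/6J mice aged 3 months, with 2 wild-type (WT) samples and 2 samples lacking IRF8 (IRF8KO), a transcription factor of myeloid cells. The labels do not describe the knockout allele, the sex of the mice, the number of mice per sample or whether samples came from separate mice. The data used here were 2 tables of the authors' own comparison of the groups, a list of positions and a list of regions, with no value per sample and no read depth. No header states which genotype is the first and which the second group, so the groups keep those names, and no genotype is attached to a level or a direction. Markers of microglia could not be used to check the cell type, because positions that did not differ are not listed.

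At an imprinted locus, a short CpG-rich element, the imprinting control region, carries DNA methylation from the egg or the sperm, and this mark is kept in body cells on that parental copy alone. Reads from both copies then give an intermediate methylation level, between those of an unmethylated and a fully methylated site, in any tissue. On most of the loci here the mother's copy is methylated, usually at the promoter of a gene or long non-coding RNA expressed from the father's copy. H19, Meg3 and Rasgrf1 are the loci whose father's copy is methylated, each at an element upstream of the gene. Loss or gain of the mark moves the level towards 0 or 1. The question was therefore whether loci with such an intermediate level carry listed differences between the groups.

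Windows set to take in the imprinting control elements were almost free of listed differences. They lay around every annotated transcript start of 16 genes with a maternal mark (2000 bp to each side) and at the upstream elements of H19, Meg3 and Rasgrf1. An estimated 9891 positions had been tested in them, and 4 were listed, or 0.0404%. Grb10 and Inpp5f had 6 separate windows each and Gnas had 4, so alternative starts that need not hold the element count towards this share. The windows hold 4558 reference CpGs, with a cytosine on each strand. These are fewer cytosines than the 9891 positions, so the estimate may be too high and the share too low. Over the genome, row numbers came to 97.7% of reference CpG cytosines. No deposited region touched any of these windows. Over the whole genome 0.63% of tested positions were listed, and within 2000 bp of transcript starts of protein-coding genes 0.386%. A listed position fell in the start windows of 3 of the 16 maternal-mark genes (18.8%), against 18.3% of protein-coding genes by the same window, so by number of genes the share was near the background. The elements of Meg3 and Rasgrf1 lie more than 10000 bp from those genes and were examined in addition to the members' own windows.

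**Figure D1:**
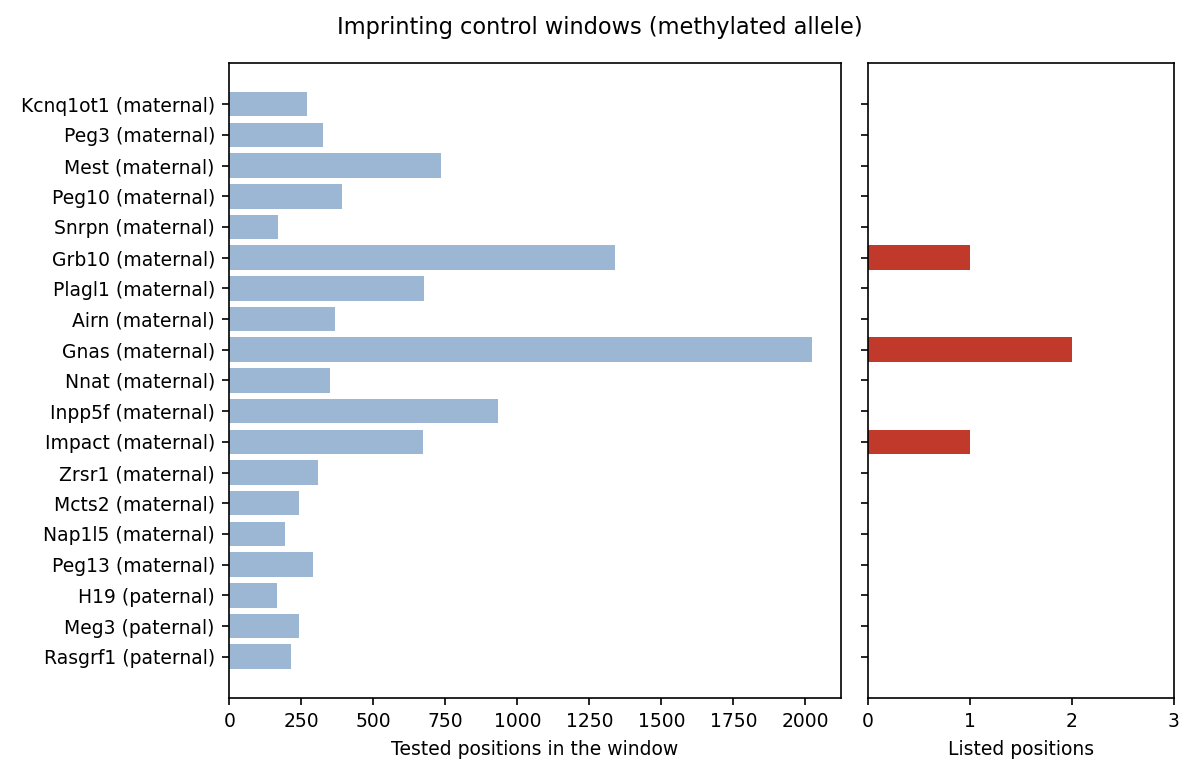
Number of tested positions (left, estimated from the row numbers of the deposited table) and of listed positions (right) in the windows set for imprinting control elements of 19 genes, with the parental copy that carries the mark in brackets. For maternal marks the windows surround every annotated transcript start of the gene. Tested positions ran from 164 at H19 to 2021 at Gnas, and only the windows of Grb10, Gnas and Impact held any listed position.

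The 4 exceptions lay in CpG-poor sequence. In Gnas, which encodes the stimulatory G protein alpha subunit, both cytosines of 1 intronic CpG were listed, 1836 and 1837 bp from the start of an annotated alternative transcript. At chr2:174339868 the authors' deposited table gives a level of 0.524 in the first and 0.944 in the second group, a difference of -0.420 with a standard error (SE) of 0.0827 and a false discovery rate (FDR) of 0.000986. The paired cytosine has the same levels in the authors' deposited table but an SE of 0.146 and an FDR of 0.840. The stretch is shown because the CpG, in capitals at its centre, is the only one in it, on GRCm38 chr2:174339828-174339908, plus strand.
Gnas position: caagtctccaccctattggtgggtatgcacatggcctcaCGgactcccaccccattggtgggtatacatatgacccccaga

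Impact, a regulator of the translation kinase GCN2, had 1 position 1615 bp upstream of the gene on chromosome 18. Its levels in the authors' deposited table were 0.463 and 0.658, a difference of -0.195 (SE 0.0443) with an FDR of 0.0139. Its dispersion, a measure of spread between samples, was 0.286 in the first and 0.989 in the second group in the authors' deposited table. The position in Grb10, an adaptor that restrains insulin signalling, lay in an intron 822 bp from the start of an annotated alternative transcript, and the authors' deposited table gives 0.688 and 0.384 with an FDR of 0.823. Within 250 bp of these positions the reference has 1 to 3 CpGs. The windows as a whole had a median of 2.30 CpGs per 100 bp, against 0.802 over the genome.

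Several of the elements lay far from any listed position. The nearest was 82141 bp from the window of Nnat, 66850 bp from that of Nap1l5, 53103 bp from that of Mest, 46111 bp from that of Peg10 and 41302 bp from that of Meg3. It was 25811 bp away for Kcnq1ot1, 12752 bp for H19 and 12485 bp for the upstream element of Rasgrf1. Snrpn, Inpp5f and Mcts2 stood at the other end of this scale, with listed positions 41, 482 and 668 bp outside the window. Windows of 3000 bp to each side therefore held 19 listed positions, of which 9 were at Mcts2, 3 at Snrpn, 3 at Impact and 1 at Inpp5f, while windows of 1000 bp held 1. A position without a row has no level here, so these counts do not show that its level was intermediate in either group.

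Counting whole genes with 10000 bp to each side, imprinted genes had listed positions at a share of genes near the background, and regions at a higher share. A listed position was present at 25 of 41 members (61.0%), against 64.1% of protein-coding genes. At 15 of 41 (36.6%) a position passed an FDR of 0.05, against 30.8% of protein-coding and 24.2% of all annotated genes. A region was present at 8 of 41 (19.5%), against 9.19% of protein-coding and 5.57% of all annotated genes, and the 8 genes share 6 loci. The members' windows were longer, with a median of 57099 bp against 37425 bp for protein-coding genes, and a longer window can hold more rows. Per tested position, 370 of an estimated 73001 were listed (0.507%, against 0.63% over the genome), below the background as by number of genes. Of these, 58 had an FDR under 0.05 (0.0795% of those tested, against 0.118%), so for this measure the members were above the background by number of genes and below it by position. Rasgrf1 alone held 118 of the 370, and without it the listed share was 0.360%.

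The loci differed widely. The listed share of tested positions was above that of the genome at 5 of the 19 loci, Rasgrf1 (3.87%), Inpp5f (2.33%), H13 with Mcts2 (1.61%), Snrpn with its neighbours (1.14%) and Mest with Copg2 (0.975%). It was 0.353% or less at the other 14, and no position was listed at Plagl1 or at Nnat and Blcap. The median share per window, over 17441 protein-coding genes with at least 500 tested positions, was only 0.132%. Of those genes, 24.7% stood at or above 0.527% and 17.3% at or above 0.811%. A share above that of the genome is therefore not particular to these loci, and one below it is usual for a gene. The 5 loci did not differ alike: positions at H13 were all higher in the first group, those at Rasgrf1 and Snrpn went both ways, and most of those at Copg2 were lower in the first group.

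**Figure D2:**
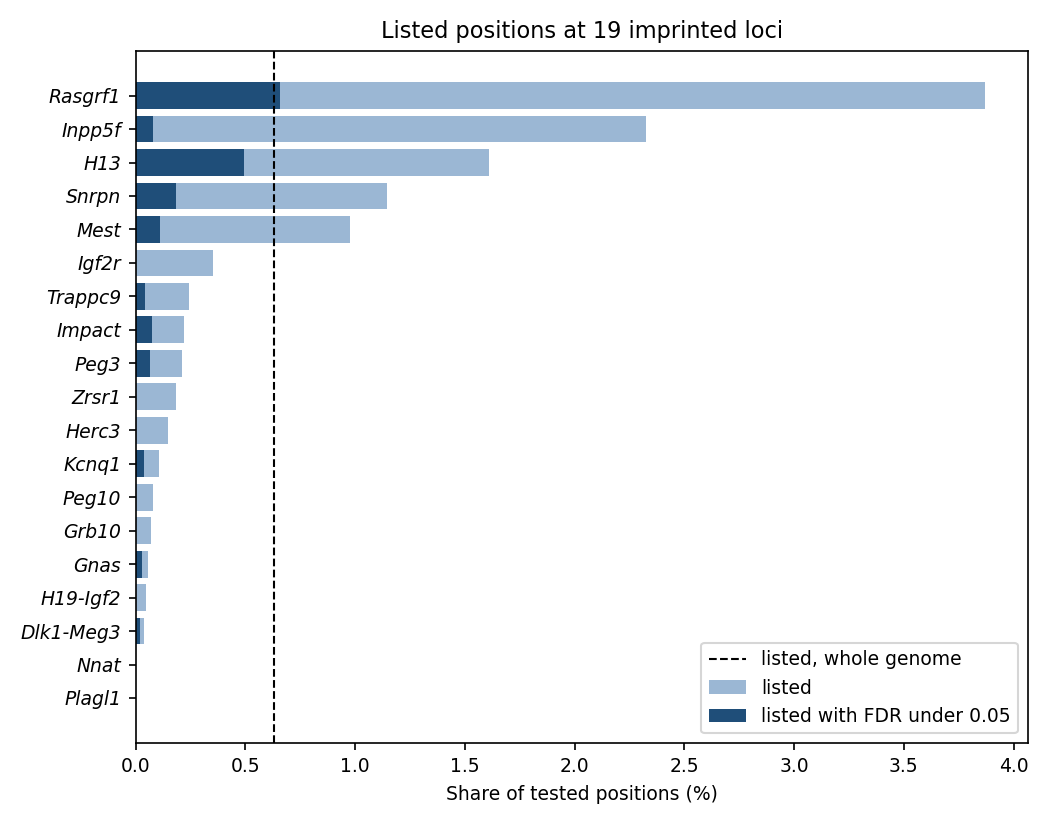
Share of tested positions that were listed (light bars) and listed with an FDR under 0.05 (dark bars, drawn over the light ones) at each of 19 imprinted loci. The dashed line marks the listed share over the whole genome, 0.63%, which 5 loci exceed.

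Sequences of 6 stretches are given here because the results on regions turn on them: 5 of the 12 regions (the middle 300 bases of that at Inpp5f), and, for contrast, the bases just upstream of the Mcts2 start, where a maternal mark is known to lie. All are the plus strand of GRCm38, 5′ to 3′, with CpGs in capitals. They are chr7:128672253-128672552 at Inpp5f, chr17:12779627-12779781 in Airn upstream of Igf2r, chr2:152683081-152683338 in H13 upstream of Mcts2, chr6:30889237-30889291 in Copg2, chr9:90021010-90021259 in Rasgrf1 and chr2:152686785-152687034 upstream of Mcts2.
Inpp5f region: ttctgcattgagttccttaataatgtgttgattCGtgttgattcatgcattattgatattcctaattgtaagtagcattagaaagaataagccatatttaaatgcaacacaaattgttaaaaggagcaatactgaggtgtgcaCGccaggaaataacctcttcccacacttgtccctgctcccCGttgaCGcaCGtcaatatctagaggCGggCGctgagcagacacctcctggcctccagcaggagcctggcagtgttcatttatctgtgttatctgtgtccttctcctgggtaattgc
Igf2r region: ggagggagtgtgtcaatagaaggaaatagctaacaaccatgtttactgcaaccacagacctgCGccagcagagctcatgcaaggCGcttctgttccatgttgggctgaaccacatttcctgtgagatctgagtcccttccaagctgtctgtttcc
Mcts2 region: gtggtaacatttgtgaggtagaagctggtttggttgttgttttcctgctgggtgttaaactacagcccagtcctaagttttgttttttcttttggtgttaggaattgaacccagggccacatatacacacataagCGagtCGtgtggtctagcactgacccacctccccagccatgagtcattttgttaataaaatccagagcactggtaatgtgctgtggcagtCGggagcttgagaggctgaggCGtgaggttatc
Copg2 region: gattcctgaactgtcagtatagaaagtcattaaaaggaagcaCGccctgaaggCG
Rasgrf1 region: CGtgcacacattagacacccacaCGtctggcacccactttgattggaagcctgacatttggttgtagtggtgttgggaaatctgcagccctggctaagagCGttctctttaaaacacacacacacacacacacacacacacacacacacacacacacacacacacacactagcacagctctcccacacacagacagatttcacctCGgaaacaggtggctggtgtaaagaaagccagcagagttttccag
Mcts2 upstream: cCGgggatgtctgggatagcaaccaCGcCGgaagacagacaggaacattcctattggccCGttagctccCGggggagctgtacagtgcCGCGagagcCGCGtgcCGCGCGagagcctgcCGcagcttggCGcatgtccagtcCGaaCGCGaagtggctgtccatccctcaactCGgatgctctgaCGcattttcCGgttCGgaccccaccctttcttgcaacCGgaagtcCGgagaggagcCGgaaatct

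The upstream stretch of Mcts2 holds 24 CpGs in 250 bases, while the H13 region printed above it holds 4 in 258 and the Copg2 region 2 in 55. ZFP57, a zinc finger protein that protects imprints in the early embryo, binds the methylated hexamer TGCCGC. Read on both strands (TGCCGC or GCGGCA), the hexamer occurred 3 times in the Mcts2 stretch and in none of the 11 regions on which it was searched whole, nor in the middle 300 bases of the Inpp5f region. Among RefSeq promoter windows of 300 bases (GRCm38.p6), it was present in 8 of 22 belonging to 13 of the genes with control windows (36.4%) and in 11.6% of all 32851. The former had a median of 15.5 CpGs and all promoters one of 7, and the hexamer itself contains a CpG. A match is a description of letters only.

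The 12 regions at members lay at Rasgrf1 (6), H13 with Mcts2 (2), Inpp5f, Copg2, Kcnk9 and Airn with Igf2r. The first group had the higher level in 8 and the lower in 4, and 8 contained a position with an FDR under 0.05. These 2 counts have no background here from all 3389 deposited regions, so neither is read as particular to imprinted genes. Each region was short, from 55 to 380 bp. A level between 0.35 and 0.65, called intermediate here, was deposited for at least 1 group in 8 of the 12, against 59.0% of all 3389 deposited regions. In 3 of the 8 the other group was below that range, and in 5 it was above.

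**Figure D3:**
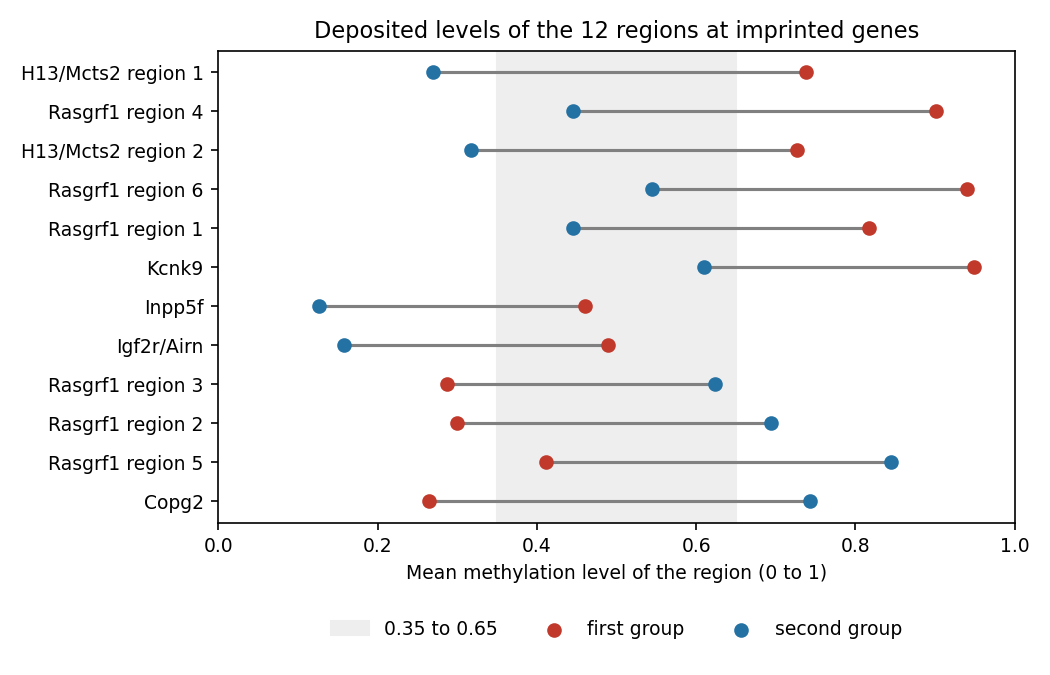
Mean methylation level of each of the 12 regions at imprinted genes in the first group (red) and in the second group (blue), from the authors' deposited table, with a line joining the groups and the range from 0.35 to 0.65 in grey. Regions are numbered along the chromosome within a gene. Inpp5f and Igf2r/Airn run from the grey range towards 0, and Rasgrf1 regions 1, 4 and 6 and Kcnk9 from high levels into it.

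Inpp5f, an inositol polyphosphate phosphatase gene, has a brain transcript from an internal promoter that is silenced on the methylated maternal copy. Its region covers an intron, 4712 bp from the nearest annotated transcript start and 61074 bp from the gene's own. The region lay 2522 bp outside the windows set around the Inpp5f transcript starts. None of the estimated 932 tested positions in those windows was listed. The authors' deposited table gives a mean level of 0.460 in the first and 0.127 in the second group over 23 cytosines, a difference of 0.333. The region lay within a longer run of 43 listed positions over 914 bp, in which levels ran from 0.403 to 0.578 in the first group and from 0.100 to 0.219 in the second per the authors' deposited table. At all 43 positions the first group was intermediate and the second below. Only positions that differ are listed and neighbours here share levels, so the gap between the ranges follows from the selection. The 43 are not independent measurements. Only 1 of the 43 positions passed an FDR of 0.05 (0.0453, at a cytosine that is not in a reference CpG), and no position inside the region did, with a smallest FDR of 0.151.

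Igf2r, the receptor that clears the growth factor IGF2, is silenced on the paternal copy by the antisense transcript Airn. The region shared by their windows lies in an intron of Airn, 9963 bp upstream of Igf2r, so that it enters the window of Igf2r at its edge. The authors' deposited table gives 0.489 in the first and 0.158 in the second group. The smallest FDR of its 6 positions was 0.0557, and none of the 18 listed positions at Igf2r and Airn passed 0.05. A second group of 5 positions in Airn, 4517 bp from its nearest annotated start (chr17:12745820-12746010), had levels of 0.494 and 0.218 in the authors' deposited table, with FDRs of at least 0.404.

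H13, which encodes signal peptide peptidase, hosts the retrogene Mcts2 in an intron, and the maternal mark sits at the Mcts2 promoter. The window held 36 listed positions, all higher in the first group, of which 34 formed a run of 1380 bp (chr2:152682988-152684367) that ended before the CpG-rich stretch shown above. The regions within it lie 3697 and 2809 bp upstream of Mcts2, the first over an exon of a non-coding H13 transcript and the second in an intron. In the authors' deposited table their levels were 0.737 and 0.269 for the first region and 0.727 and 0.317 for the second (chr2:152684016-152684226). Neither group was at an intermediate level at either region. In the first region 7 of 11 positions and in the second 4 of 11 had an FDR under 0.05, with smallest values of 0.00551 and 0.00333. Both of these values belong to cytosines that are not in a reference CpG. No position in the 2000 bp on either side of the Mcts2 start was listed, among an estimated 242 tested.

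Rasgrf1, an exchange factor for Ras expressed from the paternal copy in brain, carried the most listed positions of any member. Of the 118 positions, 73 had their lower level in the first group and 45 their higher level, while 17 of the 20 with an FDR under 0.05 were higher. The positions fell into 17 clusters (positions within 500 bp of each other), 12 of them higher in the first group, 5 lower, and the 20 lay in 8 clusters. The first cluster lay 20.2 kb into the gene, and the 6 regions lay in introns (3) or downstream of the gene (3). By listed share, 1.35% of the 17441 protein-coding genes with at least 500 tested positions stood at or above Rasgrf1, and 23 of those genes had at least as many regions. The upstream element that carries the paternal mark had none of its estimated 214 tested positions listed.

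**Figure D4:**
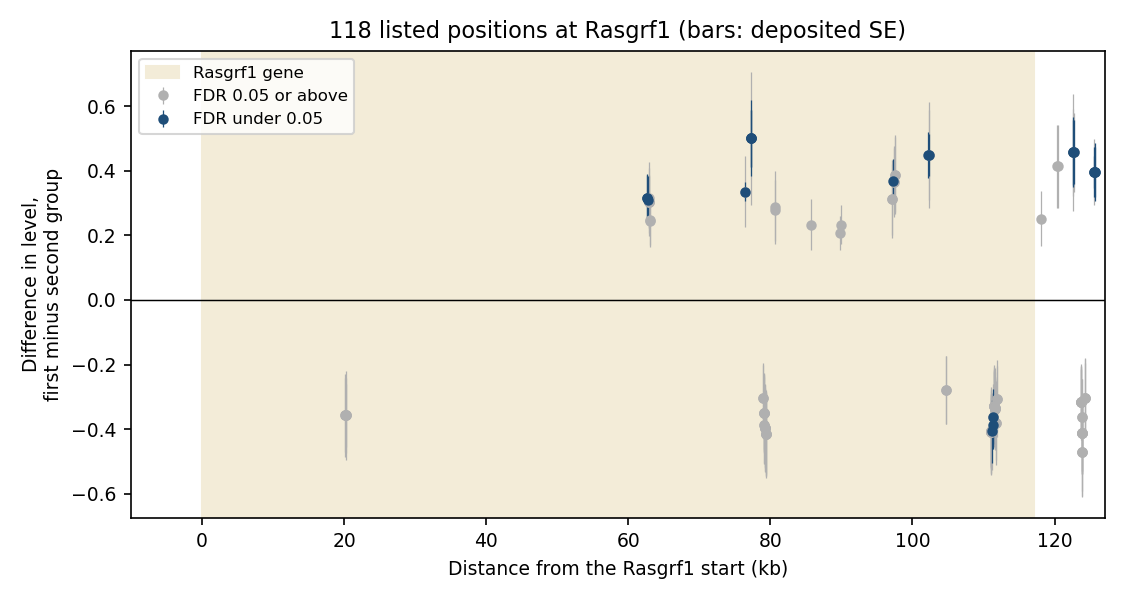
Difference in methylation level (first minus second group) at the 118 listed positions of Rasgrf1 against distance from the gene start in kb, with the deposited standard error as bars and the gene shaded. Positions with an FDR under 0.05 (dark) are seen from the cluster centred at 62.9 kb on, above 0 except in the cluster centred at 111.4 kb.

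Clusters of both directions lay side by side along Rasgrf1. Intronic positions at 77.3 kb (chr9:89987117-89987210) had levels of 0.892 and 0.392 in the authors' deposited table, with 3 of 4 positions past the FDR. At 79.2 kb, 17 positions (chr9:89988939-89989293) went the other way, with levels of 0.405 to 0.464 and 0.769 to 0.820 in the authors' deposited table, and none passed the FDR. The intronic region printed above had 0.299 and 0.693 in the authors' deposited table, and 3 of its 9 positions passed. The smallest FDR was 0.000750, at a cytosine that is not in a reference CpG. Beyond the gene, the region at chr9:90035415-90035567, 8438 bp downstream, had 0.941 and 0.545 in the authors' deposited table, with 4 of 5 positions past the FDR. Between them, chr9:90033748-90033808 had 0.412 and 0.844 in the authors' deposited table, with a smallest FDR of 0.0781. The intronic region at chr9:90007203-90007448 had 0.817 and 0.445 in the authors' deposited table, chr9:90021490-90021556 had 0.287 and 0.623, and chr9:90032562-90032639, downstream of the gene, had 0.902 and 0.445.

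Mest, a hydrolase-fold gene with a maternal mark at its promoter, had no listed position, while its convergent neighbour Copg2, a coatomer subunit gene, had 26. Of these 22 were lower in the first group. The Copg2 region, in an intron 7530 bp from the start, had 0.264 and 0.743 in the authors' deposited table, and 1 of its 5 positions passed (FDR 0.0145). A run of 17 positions 40.5 kb into Copg2 (chr6:30855787-30856804), which is not in the region list, contained the other 2 that passed. The better had 0.333 and 0.749 in the authors' deposited table (FDR 0.000563) and is not in a reference CpG. 

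In the domain of the non-coding RNA Peg13, the host gene Trappc9, a trafficking complex subunit, had 14 listed positions over an estimated 12442 tested, and Peg13 had none. Kcnk9, a potassium channel gene expressed from the maternal copy in brain, had 20. Its region (chr15:72504564-72504635) lies in the UTR at the gene's 3′ end and had 0.949 and 0.610 in the authors' deposited table. The 1 position of that region that passed, with an FDR of 2.53e-06, is not in a reference CpG. The position of smallest FDR at Kcnk9, chr15:72529804 in an intron, is not in a reference CpG either. It had 0.828 and 0.386 in the authors' deposited table (FDR 1.1e-31). The nearest listed CpG cytosine had an FDR of 0.0161. Its levels were identical, as in many runs of neighbouring positions here, and cannot be taken as a separate measurement. In Trappc9 the 1 position that passed had 0.681 and 0.322 in the authors' deposited table, with an FDR of 0.000911. That position is not in a reference CpG.

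The Snrpn domain, which also holds Ube3a, a ubiquitin ligase silenced on the paternal copy in neurons, had 37 listed positions and no region. They formed 24 clusters, most of 1 or 2 positions. Of the 24 at Snrpn, a spliceosome protein gene whose promoter carries the maternal mark, 9 were lower in the first group, 15 were higher, and all 3 that passed the FDR were higher in the first. The best, at chr7:59989438, had 0.940 and 0.614 in the authors' deposited table (FDR 1.4e-06). Another, chr7:60007152, belonged to a cluster 2052 bp from an annotated start and had 0.788 and 0.416 in the authors' deposited table (FDR 0.00314). This position is not in a reference CpG. Ube3a had 6 listed positions, and the 1 that passed had 0.733 and 0.962 in the authors' deposited table (FDR 4.17e-05). Mkrn3, a ubiquitin ligase gene, had 5, and the 2 that passed share levels of 0.327 and 0.733 in the authors' deposited table, 2049 and 2145 bp downstream of it. The one at 2145 bp is not in a reference CpG. Ndn and Magel2, both of the MAGE family, had 1 each, and neither passed the FDR.

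Usp29, Kcnq1 and Rian had scattered positions and no region. Usp29, a ubiquitin peptidase gene that shares its start region with Peg3, had 13, of which 4 passed, all higher in the first group, and the best had 0.841 and 0.386 in the authors' deposited table (FDR 0.000113). Peg3 and Zim1, zinc finger genes of that domain, had none. Kcnq1, a potassium channel gene, had 9, of which 3 passed, and the best had 0.294 and 0.717 in the authors' deposited table (FDR 0.000860). Kcnq1ot1, the non-coding RNA that silences this domain, had 1, far from its promoter and with an FDR of 0.814, and Cdkn1c, a cell cycle inhibitor, and Phlda2, a restrainer of placental growth, had none. Rian, a non-coding RNA that hosts small nucleolar RNAs, had both cytosines of 1 exonic CpG, of which 1 passed, with 0.949 and 0.491 in the authors' deposited table (FDR 0.00158).

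The other members had few rows or none. Commd1, host of the retrogene Zrsr1, had 4 listed positions (smallest FDR 0.152), Herc3, host of Nap1l5, had 3 (0.105), Sgce, next to Peg10, had 2 (0.0814), Grb10 had 2 (0.319) and the growth-restraining RNA H19 had 1 (0.582). None of these passed the FDR. The 16 members without any listed position were Igf2, Cdkn1c, Phlda2, Peg3, Zim1, Mest, Peg10, Plagl1, Nnat, Blcap, Meg3, Dlk1, Mirg, Zrsr1, Nap1l5 and Peg13. They include 8 of the genes whose own promoter is the maternal mark, and the growth factor Igf2 and the Notch ligand family member Dlk1. Whether a position at these genes was left out for want of depth or for want of a difference cannot be told from the tables.

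Taking all 370 listed positions, a level of 0.35 to 0.65 was deposited for at least 1 group at 303 (81.9%), against 79.2% of all 269406 listed positions. Both groups were in that range at 3 positions (0.811%, against 1.24% of all listed positions), and listing by difference leaves little room for such positions. At 184 (49.7%) 1 group was intermediate and the other above the range, against 58.7% of all listed positions. At 116 (31.4%) 1 group was intermediate and the other below it, against 19.3%, and 43 of the 116 were those of the Inpp5f run. Among the 58 positions with an FDR under 0.05 the intermediate share was 58.6%, close to the 57.3% of all such positions.

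**Figure D5:**
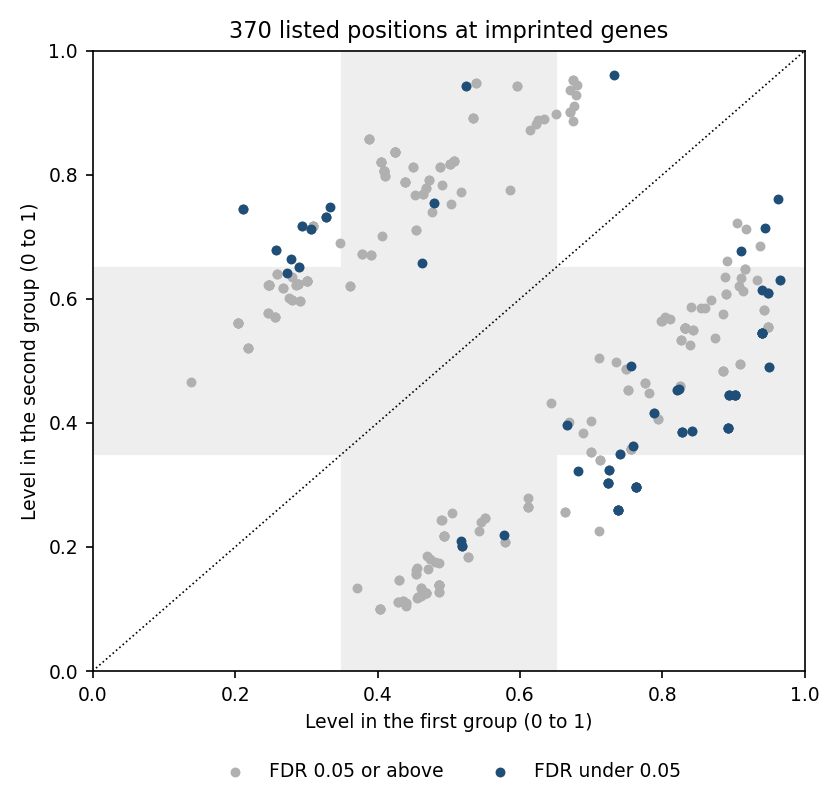
Level in the first group against level in the second group at the 370 listed positions of the 41 imprinted genes, both on a scale from 0 to 1, with the range from 0.35 to 0.65 shaded. Positions with an FDR under 0.05 are dark. Of the 370, 303 lie in a shaded band, only 3 lie where the bands cross, and a gap along the diagonal reflects that the smallest listed difference at these genes was 0.183.

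By direction, 220 of the 370 positions (59.5%) were higher in the first group, against 61.9% of all listed positions. Among the 58 with an FDR under 0.05 it was 44 (75.9%), against 58.1%. At H13 and Rasgrf1 stand 28 of these 44, and grouped by distance (within 500 bp) the 58 form 34 clusters. Of the 58, 34 (58.6%) were at a reference CpG, against 72.3% of all positions with an FDR under 0.05. SEs at the 370 positions ran from 0.0303 to 0.205 with a median of 0.104, against 0.103 over all listed positions.

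A further list of 41 imprinted genes outside the members had a region at 6, a position with an FDR under 0.05 at 13 and a listed position at 27, against 9.19%, 30.8% and 64.1% of protein-coding genes. Of these, Bcl2l1, an inhibitor of cell death, had 2 regions lower in the first group, the one at chr2:152802324-152802661 with 0.341 and 0.852 in the authors' deposited table and 18 positions past the FDR. Gab1, an adaptor of growth factor receptors, had an intronic region with 0.277 and 0.666 in the authors' deposited table. The first group had the higher level in regions at Ppp1r9a, Pon3 and Ampd3 and the lower level in that near Tspan32, with 4 or 5 cytosines each.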

How the data were processed

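Microglial DNA from 40000 sorted cells was bisulfite-converted and sequenced as paired reads of 75 bp, per the labels' protocols. Bismark, Trim Galore and mm10 are named in the submitters' processing notes. Which differential test was run is not given in the sources used here. Per the file headers, the authors deposited, for each position, a fraction (methylation level) per group, their difference and SE, a test score, a dispersion, a p-value with its FDR and a posterior probability, and for each region mean fractions, a difference, a cytosine number and an area score. The smallest posterior listed was 0.95. Columns of per-sample values set aside: 0. Row numbers follow chromosome and position up to 42734461, and were used as an index of tested positions, interpolated over reference CpG cytosines between listed rows. Read depth is unknown, so no interval was computed for a level. Neighbouring listed positions often carry identical levels, so the positions of a run cannot be taken as separate measurements.

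Windows were counted with Python 3.11.15, pandas 2.3.3 and numpy 2.4.6, and the counting was tested on simulated data. No test was added to the authors' FDR, adjusted over all tested positions. For 2 against 2 samples, 0.333 is the smallest two-sided p that exact permutation can give. Control windows were set from general knowledge of where imprints lie, without deposited coordinates. The members, lists and windows were chosen with earlier results of these data known. Every member with a region or an FDR under 0.05 was named, the smallest FDR was given for up to 6 of the other members with listed positions, and members with none were named.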

Additional observations from a re-analysis of the deposited data

How the results depend on the processing

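No paired analysis was possible because neither table has per-sample values, and for the same reason the coverage minimum, the replicate block and leaving out replicates were not run. Settings without Rasgrf1 were chosen after seeing the data. Of 37 alternatives, 20 stayed within 1.5 times the count or within the 95% Clopper-Pearson interval of the share, and 17 moved. That interval treats positions as independent, which neighbouring positions are not, so it served only to sort the settings. Counts and shares cannot change sign, but some changed side of their background, as given below. The 8 members with a region were 3 with at least 10 cytosines per region (5.14% of protein-coding genes) and 4 with at least 3 reference CpGs (6.65%). The 15 members past the FDR were 9 under 0.001 (14.3%) and 25 with 50000 bp windows (59.0%). The listed share of 0.507% was 0.422% at reference CpGs (genome 0.481%), 0.297% for positions with their own dispersion (0.293%, so above it), 0.133% in clusters (0.253%) and 0.360% without Rasgrf1. The 59.5% of positions with the higher level in the first group (all listed 61.9%) became 75.9% at an FDR of 0.05 (58.1%), 73.7% at 0.001 (56.5%) and 69.4% without Rasgrf1, each above the background. Counted in clusters, the share was 58.8% (65.4%), below the background. The intermediate share of 81.9% (79.2%) was 79.0% without Rasgrf1, just below the background, 59.5% for 0.4 to 0.6 (55.5% of all listed), 99.7% for 0.25 to 0.75 (98.2%) and 58.6% with an FDR under 0.05. The 4 positions in control windows were 1 within 1000 bp, 19 within 3000 bp and 2 with an FDR under 0.05. Narrower ranges and stricter limits admit fewer items by construction. Otherwise the cause was not tested. Unknown depth limits every absence.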

Other observations

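Genes that keep imprints were examined as a separate list of 15. A region was present at 2 of them, a position with an FDR under 0.05 at 7 and a listed position at 11, against 9.19%, 30.8% and 64.1% of protein-coding genes. Dnmt3a, a DNA methyltransferase gene, had a region of 29 cytosines over a UTR (chr12:3912838-3913293) with levels of 0.285 in the first and 0.767 in the second group in the authors' deposited table, and 27 of its positions had an FDR under 0.05. Arid4a, a chromatin factor gene, had an intronic region of 5 cytosines with 0.912 and 0.537 in the authors' deposited table.

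Markers of brain cell types were counted in the same windows. A region was present at 3 of 6 microglia markers (P2ry12, Cx3cr1 and Sall1), 3 of 4 endothelial markers (Pecam1, Cdh5 and Flt1), 1 of 5 neuron markers (Syt1), 1 of 5 astrocyte markers (Aldh1l1) and 0 of 5 oligodendrocyte markers, against 9.19% of protein-coding genes. Positions passed an FDR of 0.05 at 5 of 6 microglia, 3 of 4 endothelial, 1 of 5 neuron, 3 of 5 astrocyte and 2 of 5 oligodendrocyte markers, against 30.8%. All 6 regions at the endothelial markers were lower in the first group, from 0.211 to 0.416 against 0.598 to 0.810 in the authors' deposited table. Both regions at P2ry12 were lower in the first group and that at Cx3cr1 higher, 2 of the 5 at Sall1 were higher and 3 lower, 1 of the 2 at Aldh1l1 was higher, and that at Syt1 was higher. Their part in the differences at imprinted genes was not tested.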
